A study of Mus musculus with 13 samples.

Results

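Endothelial cells (ECs) that line tumor vessels and ECs that sprout from embryoid bodies were compared here, with 8 of the 13 RNA-Seq libraries of the study. The tumor side was the 6 libraries of CD31+/CD105+ ECs, sorted without CD45+ blood cells, from wild-type C57BL6/J mice bearing shRenilla tumors, in which neither the host nor the cancer cells had been depleted of Apelin. The tumors came from E0771, a mouse mammary carcinoma cell line, and each library was made from 100 sorted cells by Smart-Seq2, an amplification protocol for very small RNA amounts. The sprout side was the 2 libraries of CD31+ ECs labelled Apln anti-sense, on a C57BL/6x129 background. These derive from a haploid mouse embryonic stem cell (mESC) line with a splice-acceptor cassette in Apln that Cre had turned into the silent orientation, and the antisense line is 1 such derivative. Embryoid bodies were moved into collagen on day 8 and kept in 30 ng/ml VEGFA164, the sprouting signal. Once sprouts appeared, 1000 nM Apelin peptide was added to the antisense cells and its vehicle DMSO to the sense cells. This assignment comes from the study's text, since the labels of single libraries do not name it. Sprout RNA was made into libraries with a TruSeq kit after poly-A selection. The labels do not say whether the libraries of a group came from separate mice or separate cultures, so the p-values cover only the spread between libraries.

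Tissue and library protocol changed together between the 2 groups, as did strain, sort markers, the added VEGFA164 and Apelin, and the counting of reads. These cannot be told apart. A gene was therefore called only when its adjusted p was under 0.05 and its log2 fold change exceeded 3 in either direction. The remaining 5 libraries, 3 from Apelin-depleted tumors and 2 labelled sense, were used to see what was called in other libraries with the same contrast of tissue and protocol.

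Apelin is a secreted peptide that binds the Apelin receptor, a G protein-coupled receptor of ECs, and endothelial tip cells are known for a high Apln level. Vessels differ by type (artery, vein, capillary, lymphatic), by organ and by age. Sprouts in a gel carry no blood, whereas vessels of a tumor are recruited from adult host vessels and meet immune cells and their cytokines. CD31, encoded by Pecam1, marks ECs and is also carried by mouse embryonic stem cells.

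The libraries of tumor ECs held 4661044 to 9985584 counts and those of sprout ECs 16804071 and 12328542. Both kinds of file listed 23690 symbols, which took at least 97.2% of the counts of each tumor library and 97.7% of those of each sprout library, and mitochondrially encoded genes were not among them. Across genes, Spearman's rho was 0.836 to 0.914 between the tumor libraries, 0.983 between the sprout libraries and 0.622 to 0.700 between tumor and sprout libraries. The genes are not independent and libraries of a group share their protocol. No libraries of a group agreed within sampling noise. The 10 most counted genes took 6.51 to 11.8% of the tumor counts and 3.64 and 4.45% of the sprout counts. The median log2 fold change fell with transcript length, from 0.88 in the shortest quartile of genes to 0.10, -0.39 and -0.63 in the longer ones. From the shortest to the longest quartile, 8.70, 5.23, 3.77 and 2.33% of genes were called higher in tumor ECs. In the same order, 5.58, 5.67, 6.10 and 6.83% were called higher in sprouts. The part of length in the results was not tested.

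Of 14758 genes tested, 743 were called higher in tumor ECs, which is 5.03% of them, and 892 were called higher in sprout ECs, which is 6.04%. With sprout replicate 1 left out, 515 and 400 genes were called, and with sprout replicate 2 left out, 456 and 329. Such a fit has 1 sprout library, which is assumed to vary like the tumor libraries, and this holds for every value given below without sprout replicate 1 or 2. In all, the 6 tumor libraries lay above both sprout libraries in 19.5% of tested genes and below both in 28.0%, and this held for 712 of the 743 and all 892 called genes. Ranks within each library need no scaling between protocols, and by rank 733 and 886 of the called genes did not overlap. In the other 5 libraries 7.03% of 14429 genes were called higher in tumor and 8.93% higher in sprout. Of the genes called in the main comparison, 1590 were tested there, 1576 had the same sign, and 599 of the 743 and 572 of the 892 were called again.

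**Figure D1:**
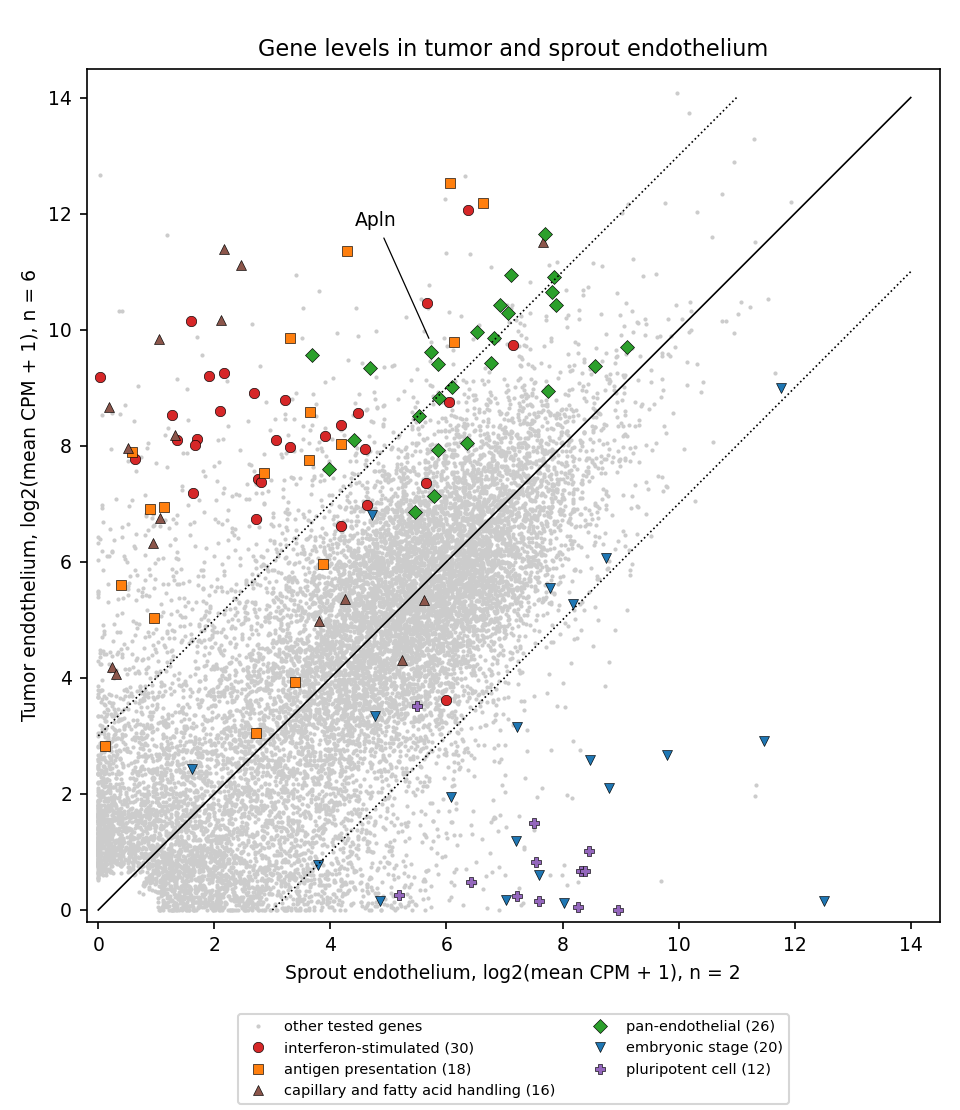
Mean level of every tested gene, as log2(mean CPM + 1), in sprout ECs (x axis, n = 2) and tumor ECs (y axis, n = 6); the solid line marks equal levels, the dotted lines a log2 difference of 3, and colors mark 6 gene lists with the number of tested members. Most interferon-stimulated, antigen presentation and capillary genes lie above the upper dotted line, and 11 of 12 pluripotent cell markers were called on the sprout side.

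Apln itself was measured first. The Apln gene (chrX:48025146-48034853 in GRCm38.p6, RefSeq) had 1137 counts per 1e6 counts (CPM) in the highest tumor library, a median of 991 and 464 in the lowest, against 49.1 and 54.8 CPM in sprout replicates 1 and 2. The groups did not overlap, and the log2 fold change was 4.08 ± 0.46 (SE, adjusted p = 3.01e-05), with means of 882 ± 290 (SD, n = 6) and 51.9 ± 4.07 (SD, n = 2) CPM. Across all 13 libraries, unscaled, Apln was 2.34 to 12.5 CPM in the 3 libraries from Apelin-depleted tumors and 437 to 1142 CPM in the 6 wild-type ones. In the sprouts it was 66.8 and 81.7 CPM in the libraries labelled sense, in which the cassette should interrupt the gene, and 60.0 and 67.9 CPM in those labelled antisense. The counts per gene therefore do not separate the sense and antisense labels. The cassette lies behind the first exon, and which exons the reads come from was not tested.

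The receptor gene Aplnr (chr2:85136360-85139923) ranged from 136 to 351 CPM in tumor ECs, with a median of 249, and was 62.1 and 41.7 CPM in sprout ECs. Its log2 fold change was 2.21 ± 0.43 (adjusted p = 0.00194), below the threshold for a call. Apela encodes the second ligand of the receptor, known from pluripotent cells and the early embryo. Apela had no count in any of the 6 tumor libraries and was 21.1 and 29.1 CPM in the sprouts, at least 50.9-fold higher against a floor of 3 counts per library. Mme encodes neprilysin, a peptidase that degrades Apelin peptides, and was 22.4 and 26.8 CPM in sprouts against at most 1.96 CPM in tumor ECs (log2 fold change -5.57 ± 1.27, adjusted p = 0.00526), although without sprout replicate 2 its adjusted p was 0.0629. Of the 5 tested genes of the Apelin axis, 1 was called higher in tumor and 2 higher in sprout.

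Both groups carried the endothelial genes by which they were sorted. Pecam1 ranged from 1117 to 1879 CPM in the tumor libraries, with a median of 1636, and was 223 and 227 CPM in the sprouts (log2 fold change 2.83 ± 0.33, adjusted p = 3.69e-05). Eng, the CD105 antigen used only in the tumor sort, ranged from 1437 to 2765 CPM against 147 and 128 CPM (3.84 ± 0.38, adjusted p = 1.27e-05). Cdh5, the junctional VE-cadherin, and Kdr, the main VEGF receptor, had smaller differences. Cdh5 was 656 to 977 CPM in tumor ECs and 574 and 527 CPM in sprouts (0.59 ± 0.27, adjusted p = 0.12). Kdr was 457 to 873 CPM against 417 and 335 CPM (0.81 ± 0.31, adjusted p = 0.0674). In both genes the libraries did not overlap, and the size of the difference was under its threshold. In the other 5 libraries Cdh5 was at 2.83 ± 0.43 (adjusted p = 0.00532) and Kdr at 3.39 ± 0.40 (adjusted p = 0.00239).

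Over 26 pan-endothelial genes, 13 were called, each of them higher in tumor ECs, and all 26 had a positive log2 fold change, with a median of 3.03 beside -0.04 over all tested genes. Their summed level was 20026 to 26983 CPM in tumor ECs and 3437 and 3212 CPM in sprouts. Emcn, a sialomucin of capillary and venous ECs, differed most among them: it was 478 to 1121 CPM, with a median of 704, against 12.5 and 11.2 CPM (6.00 ± 0.51, adjusted p = 3.57e-06). Icam2 (4.70 ± 0.42), Cd93 (3.96 ± 0.41) and Ptprb (3.90 ± 0.34) were called as well, with adjusted p of 5.64e-06, 1.46e-05 and 4.86e-06. In bulk samples, fewer ECs in a sort and less RNA of these genes per EC cannot be told apart.

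Because the pan-endothelial sum differed between the groups, each comparison was also made with this sum set equal in all libraries. On this endothelial scale every value moves down, by a median of 2.75 on the log2 scale, the median over all tested genes was -2.80, and the calls became 202 higher in tumor, or 1.37% of tested genes, and 6382 higher in sprout, or 43.2%. The median or the calls on this scale are given beside the lists below. Without this scaling, the calls of every list below stand beside 5.03% of all tested genes higher in tumor and 6.04% higher in sprouts. Apln had a log2 fold change of 1.31 on the endothelial scale and was no longer called, and Aplnr was at -0.56. Cdh5 and Kdr turned to -2.16 (adjusted p = 1.21e-05) and -1.95 (adjusted p = 5.31e-05), higher in sprouts. Both are among the genes whose sum sets this scale, so a member that differs less than the sum turns negative by construction. Their signs and p-values on this scale are therefore no separate result. The sum also includes Eng, by which only tumor ECs were sorted.

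Other cell types were looked for with marker lists. Of 12 pluripotent cell markers, 11 were called higher in sprouts by edgeR and 7 by DESeq2, which left 2 without an adjusted p, and their summed level was 2017 and 3332 CPM there against 10.1 to 26.7 CPM in tumor ECs. Pou5f1, Nanog and Sox2, the core factors of pluripotency, were 261 and 440, 225 and 411, and 250 and 418 CPM in the sprout libraries and at most 6.08, 3.25 and 2.94 CPM in the tumor libraries. Pou5f1 lost its call without either sprout library (adjusted p = 0.0676 and 0.101). Epcam, Cdh1 and Krt18, on the epithelial list and also known from embryonic stem cells, were at 71.3 to 235 CPM in sprouts, and 6 of 10 genes of that list were called higher there. Erythroid genes of the embryo were present as well: Hbb-bh1 was 66.6 and 139 CPM in sprouts with 1 count in all tumor libraries (ratio 4049, 95% Poisson interval 727 to 159900), and Hba-x was 48.1 and 56.0 CPM against at most 1.95 CPM (log2 fold change -7.48 ± 1.37, adjusted p = 0.00123). The sprout libraries thus held transcripts that ECs are not known for, beside every endothelial gene that follows, and their part in the results was not tested.

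Tumor libraries stood apart in other ways. Fibroblast markers summed to 6941 CPM in tumor replicate 2 and to 77.2 to 321 CPM in the others, with Dcn, a matrix proteoglycan, at 2336 CPM in replicate 2 and at most 9.33 CPM elsewhere. The sprouts had 2557 and 535 CPM of the same markers. Lymphatic markers summed to 3294 CPM in tumor replicate 3 and to 174 to 362 CPM in the others. Lyve1, a hyaluronan receptor of lymphatic ECs, was 1929 CPM there, between 0.762 and 100 CPM in the other tumor libraries, and 1.84 and 2.01 CPM in the sprouts. Prox1, the lymphatic master regulator, was 75.2 CPM in that library and at most 16.8 CPM in the others. Macrophage markers were highest in tumor replicate 4, at 725 CPM against 83.3 to 239 CPM in the other tumor libraries and 20.5 and 27.4 CPM in sprouts, with Lyz2 at 497 CPM in that library, although the sort left out cells with the leukocyte antigen CD45. With these 3 libraries left out together, 828 genes were called higher in tumor and 1062 higher in sprout.

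**Figure D2:**
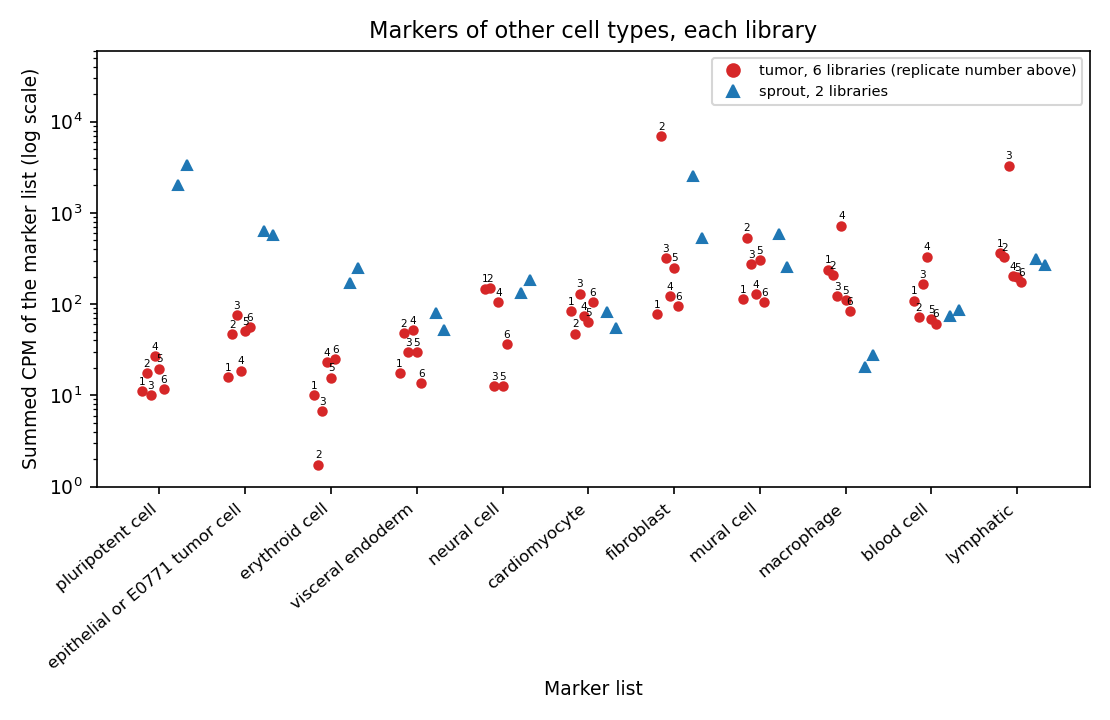
Summed CPM (log scale) of marker lists of other cell types and of the lymphatic list in each of the 6 tumor libraries (red, replicate number above the point) and 2 sprout libraries (blue). Pluripotent cell markers reach 2017 and 3332 CPM only in the sprouts, while fibroblast markers peak in tumor replicate 2, macrophage markers in replicate 4 and lymphatic markers in replicate 3.

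The genes with the largest differences on the tumor side, among those with at least 50 CPM in every tumor library, were Cxcl9, Pisd-ps3, 2900060B14Rik, Lrg1, Ly6c1, Cd36, Ly6a, Cfb, AW112010 and Selp. Cxcl9, a chemokine that interferon-gamma induces and that attracts T cells, ranged from 111 to 1036 CPM with a median of 536 in tumor ECs and had 1 count in the sprouts (ratio 20450, interval 3670 to 807600). Ly6a, the Sca-1 antigen, was 1110 to 5153 CPM with a median of 2882, against 1.24 and 1.27 CPM (11.29 ± 0.82, adjusted p = 1.35e-06). Ly6c1 was 295 to 2115 CPM against 0.448 and 0.201 CPM (11.84 ± 1.09, adjusted p = 1.23e-05). Lrg1, a secreted glycoprotein of venous ECs, was 318 to 3269 CPM against 0.149 and 0.403 CPM (12.17 ± 1.36, adjusted p = 0.000128), and Cfb, complement factor B, was 246 to 743 CPM against 0.0995 and 0.268 CPM (10.97 ± 0.81, adjusted p = 1.35e-06). AW112010 had a log2 fold change of 10.40 ± 1.30 (adjusted p = 0.000179). Pisd-ps3 and 2900060B14Rik, with 0 and 2 sprout counts, had a difference of at least 449-fold and a ratio of 6418 (1777 to 52990). Pisd-ps3 is a pseudogene, and reads it shares with its parent gene make it uncertain.

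On the sprout side they included H19, Dppa5a, Bex1, Tdgf1, L1td1, Hbb-bh1, Trap1a, Utf1 and Igfbp2. H19, an imprinted noncoding RNA of fetal tissues, was 7322 and 4262 CPM in sprouts and at most 0.218 CPM in tumor ECs (-15.35 ± 0.47, adjusted p = 1.55e-10). Dppa5a and Bex1 had no count in the tumor libraries and were at least 1002-fold and 242-fold higher in sprouts. Tdgf1, a Nodal co-receptor of the early embryo, had 1 tumor count (ratio 12020, 2157 to 474700). Trap1a and Utf1 had 2 and 3 tumor counts, with ratios of 3052 (845 to 25200) and 2518 (862 to 12210). Igfbp2, a binding protein of insulin-like growth factors, was 677 and 978 CPM against at most 1.22 CPM (-10.82 ± 0.66, adjusted p = 5.88e-07). Of these genes, Dppa5a, Tdgf1 and Utf1 are on the list of pluripotent cell markers.

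**Figure D3:**
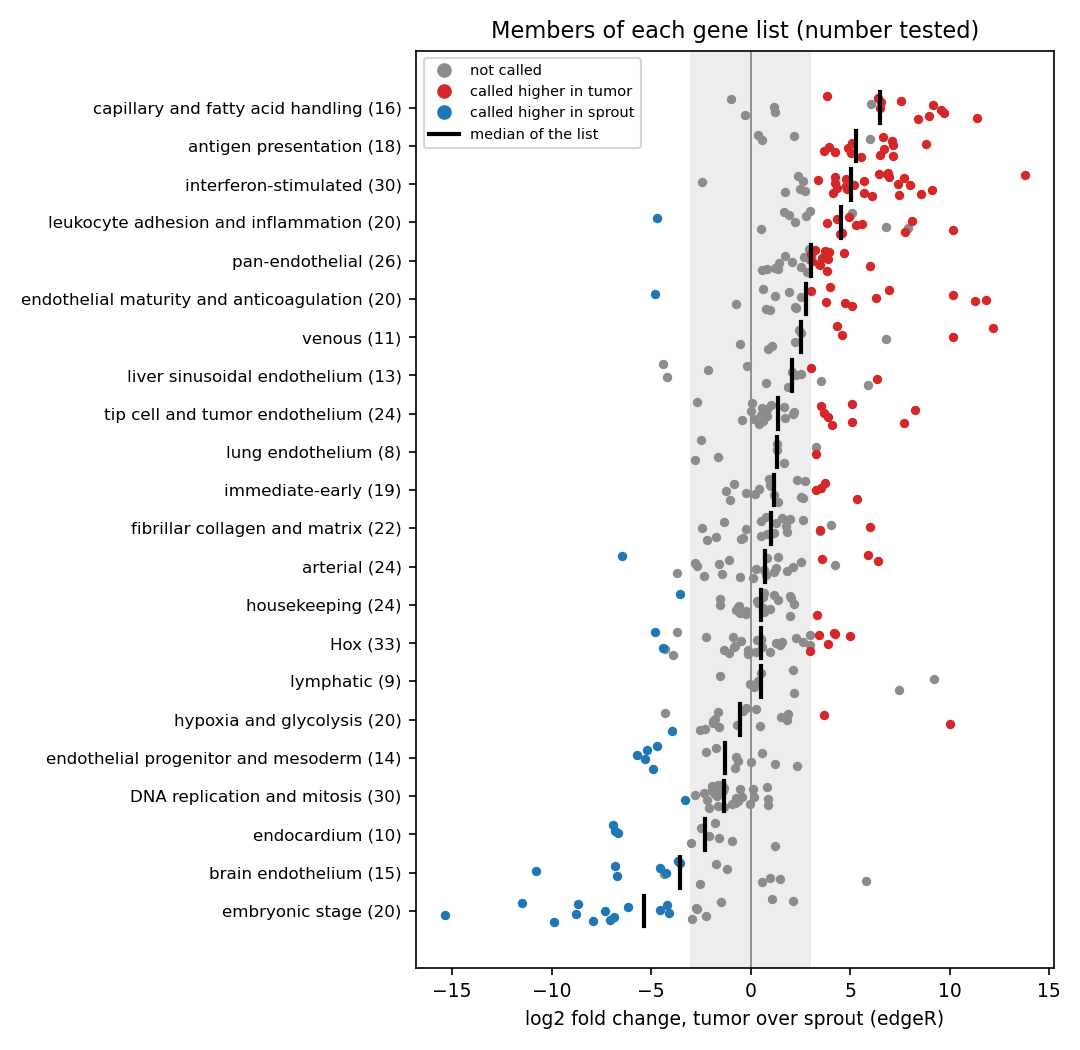
Log2 fold change, tumor over sprout, of every tested member of the gene lists with at least 6 tested members; black bars are medians, red and blue points were called and the gray band spans -3 to 3. Capillary, antigen presentation and interferon-stimulated genes have medians of 6.52, 5.32 and 5.06, and embryonic stage genes of -5.35; on the endothelial scale every median is lower, and those between 0 and 2.78 turn negative.

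Capillary genes had a higher median than the pan-endothelial ones, a difference that was not tested. Of 16 tested genes of the capillary and fatty acid list, 11 were called, all higher in tumor ECs, and the middle value was 6.52 on the log2 scale. On the endothelial scale it was 3.80, with 10 genes called higher in tumor ECs and 2 higher in sprouts, beside 1.37% and 43.2% of all tested genes. Fatty acid uptake by capillaries depends on Gpihbp1, which carries lipoprotein lipase to the lumen, on Cd36, a fatty acid transporter, and on Fabp4, a lipid-binding protein. Gpihbp1 ranged from 1308 to 3500 CPM in tumor ECs, with a median of 1885, and was 4.38 and 4.56 CPM in sprouts (8.95 ± 0.64, adjusted p = 1.34e-06). Cd36 was 134 to 1088 CPM, with a median of 209, against 0.149 and 0.134 CPM (11.35 ± 1.51, adjusted p = 0.00046). Fabp4 was 417 to 1985 CPM against 1.44 and 0.671 CPM (9.72 ± 0.86, adjusted p = 4.86e-06). All 6 tumor libraries lay far above both sprout libraries in each of these genes. The water channel Aqp1 (9.57 ± 0.59, adjusted p = 4.49e-07), Cd300lg (9.18 ± 0.75, adjusted p = 2.67e-06) and Rgcc (8.43 ± 0.87, adjusted p = 1.87e-05) were called too. Plvap, which forms the diaphragms of fenestrated and tumor capillaries, was 1486 to 4453 CPM against 225 and 179 CPM (3.85 ± 0.48, adjusted p = 6.17e-05). Meox2, a transcription factor of capillary ECs of fat and muscle, was 171 to 602 CPM against 2.44 and 0.537 CPM (7.56 ± 0.82, adjusted p = 2.2e-05). The last pair was named after its values were seen.

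Venous genes shared part of this direction. Of 11 tested genes, 4 were called, all higher in tumor ECs, with a median of 2.52 that turned to -0.25 on the endothelial scale. Selp and Vcam1 are adhesion molecules of inflamed venules. Selp, P-selectin, was 131 to 780 CPM, with a median of 322, against 0.398 and 0.201 CPM (10.18 ± 1.11, adjusted p = 4.88e-05). Vcam1 was 64.0 to 481 CPM against 11.5 and 2.15 CPM (4.61 ± 1.06, adjusted p = 0.00933, and 0.0926 without sprout replicate 2). The venous identity genes were not called: Nr2f2, which encodes COUP-TFII, was 31.1 to 189 CPM against 61.3 and 21.5 CPM (0.85 ± 0.64, adjusted p = 0.349), and Nrp2 was 69.6 to 327 CPM against 93.1 and 64.9 CPM (1.09 ± 0.51, adjusted p = 0.123). In both, the libraries of the groups overlapped.

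Arterial genes went both ways. Of 24 tested genes, 3 were called higher in tumor ECs and 1 higher in sprouts. These shares of 12.5% and 4.17% stand beside 5.03% and 6.04% of all tested genes. The median was 0.72 and turned to -2.05 on the endothelial scale. There 2 genes were called higher in tumor ECs and 8 higher in sprouts, beside 1.37% and 43.2% of all tested genes. The connexin genes Gja4 and Gja5 spread widely among the tumor libraries. Gja4 was 12.3 to 562 CPM there, with a median of 41.3, and 120 and 146 CPM in sprouts (0.11 ± 1.49, adjusted p = 0.964). Gja5 was 0.386 to 705 CPM, with a median of 17.7, against 218 and 212 CPM (-0.53 ± 2.17, adjusted p = 0.881). Replicate 2 was the highest tumor library for both. Alpl, alkaline phosphatase, which early embryonic cells also carry, was 193 and 346 CPM in sprouts and at most 10.4 CPM in tumor ECs (-6.47 ± 1.43, adjusted p = 0.0136). Fbln5, an elastic fiber protein (6.41 ± 1.48, adjusted p = 0.0132), Tm4sf1 (5.91 ± 0.72, adjusted p = 5.69e-05) and the chemokine gene Cxcl12 (3.57 ± 0.94, adjusted p = 0.0181) were higher in tumor ECs. Without sprout replicate 1 or 2, the adjusted p was 0.092 and 0.125 for Alpl, 0.0844 and 0.162 for Fbln5, and 0.179 and 0.259 for Cxcl12. The log2 fold change of Cxcl12 was 2.85 without tumor replicate 2.

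Genes of tip cells and of tumor endothelium were divided. Of 24 tested genes, 8 were called, all higher in tumor ECs, with a median of 1.36 that turned to -1.40 on the endothelial scale, where 2 were called higher in tumor and 2 higher in sprouts, beside 1.37% and 43.2% of all tested genes. Angpt2, the angiopoietin that destabilizes vessels, was 660 to 1910 CPM, with a median of 999, against 6.92 and 3.62 CPM (7.69 ± 0.63, adjusted p = 2.7e-06). Pgf, placental growth factor, was 309 to 544 CPM against 12.6 and 12.2 CPM (5.09 ± 0.40, adjusted p = 2.04e-06). Vwa1 was 511 to 970 CPM against 2.59 and 2.28 CPM (8.27 ± 0.51, adjusted p = 4.49e-07), and Trp53i11 was called as well (5.10 ± 0.70, adjusted p = 0.000173). Esm1, a secreted proteoglycan of tip cells, was 67.0 to 306 CPM against 128 and 133 CPM (0.40 ± 0.44, adjusted p = 0.538), and its libraries overlapped. On the endothelial scale it was at -2.40 (adjusted p = 0.00013), higher in sprouts. The libraries of Angpt2, Pgf and Vwa1 did not overlap.

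Organ-specific lists differed in direction. Of 15 tested genes of the brain endothelium list, 7 were called, all higher in sprouts, with a median of -3.54 and of -6.31 on the endothelial scale, where 11 of 15 were called, beside 43.2% of all tested genes. Called members are also known outside brain vessels: Lef1 is a transcription factor of Wnt signaling in the early embryo, and Tfrc is the transferrin receptor of dividing and erythroid cells. Lef1 was 44.4 and 51.9 CPM against at most 0.771 CPM (-6.72 ± 0.75, adjusted p = 2.75e-05). Tfrc was 269 and 368 CPM against 12.3 to 66.2 CPM (-3.54 ± 0.49, adjusted p = 0.000141). Itm2a (-6.83 ± 1.09, adjusted p = 0.000433) and Spock2 (-4.56 ± 1.44, adjusted p = 0.0301) were higher in sprouts, and Spock2 was at an adjusted p of 0.185 and 0.169 without sprout replicate 1 or 2, and of 0.0561 without tumor replicate 6. Slc2a1, the glucose transporter of the blood-brain barrier and of glycolytic cells, was 1369 and 1717 CPM in sprouts and 102 to 340 CPM in tumor ECs (-2.54 ± 0.34, adjusted p = 0.000121), below the size for a call. Mfsd2a, a lipid transporter that defines the barrier, was at most 11.1 CPM in tumor ECs and 2.14 and 1.34 CPM in sprouts (0.59 ± 1.58, adjusted p = 0.812). In the other 5 libraries 5 of 13 tested genes of this list were called higher in sprouts. Itm2a (-0.75, adjusted p = 0.555), Lef1 (-3.48, adjusted p = 0.145) and Spock2 (-3.30, adjusted p = 0.119) were not among them.

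Of 10 tested endocardium genes, 3 were called higher in sprouts, with a median of -2.29 and of -5.07 on the endothelial scale, where 8 of 10 were called, beside 43.2% of all tested genes. Hand2 (52.6 and 22.2 CPM), Hapln1 (83.6 and 55.3 CPM) and Tbx20 (31.7 and 16.4 CPM) were each at most 1.74 CPM in tumor ECs, with log2 fold changes of -6.92 ± 1.22, -6.83 ± 1.08 and -6.68 ± 1.27 and adjusted p of 0.000915, 0.000415 and 0.00162. In the other 5 libraries Hand2 was called again (-10.28, adjusted p = 0.0177), and Hapln1 (-5.41, adjusted p = 0.0749) and Tbx20 (-2.17, adjusted p = 0.478) were not. Hand2, Hapln1 and Tbx20 are known from heart field mesoderm and cardiac cushions. Npr3 was at -2.98 ± 0.92 (adjusted p = 0.027) and Nfatc1, a factor of endocardial and other ECs, at 1.21 ± 0.40 (adjusted p = 0.0377), and neither was called. Nfatc1 turned to -1.54 on the endothelial scale. Of 13 liver sinusoidal genes, 2 were called higher in tumor ECs, or 15.4%, beside 5.03% of all tested genes. The median was 2.06, and -0.65 on the endothelial scale, where 3 of 13 were called higher in sprouts, beside 43.2% of all tested genes. The median was 0.72 without tumor replicate 3 and 0.15 without tumor replicates 2, 3 and 4. Stab1, a scavenger receptor, was 210 to 589 CPM against 113 and 99.0 CPM (1.88 ± 0.40, adjusted p = 0.00373). Stab2 was 241 CPM in tumor replicate 3 and at most 3.90 CPM in the other libraries, in the library with the high lymphatic markers. Bmp2 (3.06 ± 0.76, adjusted p = 0.00941) was 2.63 without tumor replicate 1 and had an adjusted p of 0.0875 and 0.151 without sprout replicate 1 or 2. Of 8 lung endothelium genes, Ednrb, an endothelin receptor, was the only one called (3.29 ± 0.40, adjusted p = 5.96e-05), while Foxf1 (1.66 ± 0.97, adjusted p = 0.221) and Tbx2 (-2.80 ± 1.21, adjusted p = 0.1) were not. The median of the lung list was 1.32, it was -0.31 without tumor replicate 3, and it was -1.40 on the endothelial scale. Of 9 lymphatic genes 0 were called by edgeR, 0 by DESeq2, which left 3 without an adjusted p, and 0 had an unadjusted p under 0.05, with a median of 0.51 and of -2.25 on the endothelial scale.

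Maturity genes were mainly on the tumor side. Of 20 tested genes, 10 were called higher in tumor ECs and 1, Cyp1b1, higher in sprouts, with a median of 2.78 and of -0.016 on the endothelial scale. Beside Ly6a, Ly6c1 and Selp, Tspo, a mitochondrial outer membrane protein, was 663 to 2963 CPM against 14.1 and 11.8 CPM (6.97 ± 0.72, adjusted p = 1.49e-05). The levels of the flow-induced factors Klf2 and Klf4 were close in the groups. The sprout libraries also held pluripotent cell markers, and the part of such cells in these levels was not tested. Klf2 was 205 to 510 CPM against 150 and 220 CPM (0.96 ± 0.36, adjusted p = 0.0629), and Klf4 was 59.6 to 160 CPM against 103 and 44.3 CPM (0.75 ± 0.44, adjusted p = 0.221). The libraries overlapped in both genes, and both values turned negative on the endothelial scale, to -1.82 and -2.01.

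Interferon-stimulated genes are switched on by STAT and IRF factors in cells that meet interferon. Of 30 tested, 24 were called, all higher in tumor ECs, and on the endothelial scale 12 were called higher there and 1 higher in sprouts, beside 1.37% and 43.2% of all tested genes. That gene, Ifitm1, named after its values were seen, was 0.405 to 48.1 CPM in tumor ECs and 52.6 and 72.7 CPM in sprouts (-2.45 ± 1.25, adjusted p = 0.168, and -5.19 with an adjusted p of 0.00465 on the endothelial scale). Without tumor replicate 2 it was called higher in sprouts, at -3.96 with an adjusted p of 0.00849. The list's median was 5.06, and 2.26 on the endothelial scale, and their summed level was 7286 to 22085 CPM in tumor ECs and 643 and 624 CPM in sprouts. Ifit1, which binds viral RNA, was 107 to 208 CPM, with a median of 140, against 2.74 and 1.48 CPM (6.08 ± 0.52, adjusted p = 3.72e-06). Ifit3 was 72.6 to 433 CPM against 0.896 and 0.201 CPM (8.54 ± 1.12, adjusted p = 0.000208). Irf7, the amplifier of the type I interferon response, was 405 to 1850 CPM, with a median of 1056, against 2.29 and 1.74 CPM (9.12 ± 0.78, adjusted p = 3.72e-06). Gbp7, a guanylate-binding protein, was 231 to 477 CPM against 1.59 and 1.21 CPM (8.02 ± 0.53, adjusted p = 6.84e-07). No tumor library came near the sprout range for these genes. Ifit2 spread more, from 19.1 to 750 CPM against 2.09 and 1.01 CPM (7.44 ± 1.78, adjusted p = 0.0179), and its adjusted p was 0.187 and 0.232 without sprout replicate 1 or 2.

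The promoters of these genes were searched for the letters GAAANNGAAA, the core of the interferon-stimulated response element to which STAT and IRF factors bind, on both strands (TTTCNNTTTC) in the 250 bases before each gene's start in RefSeq (GRCm38.p6). Such a match was found for 14 of 25 interferon-stimulated genes with a window, or 56.0%, against 3.46% of 27025 symbols and 3.09% of the tested genes. It was found for 2 of 12 antigen presentation genes, for 0 of 13 pan-endothelial genes and for 0 of 8 capillary genes. Among genes called higher in tumor ECs 9.28% of 528 had it, and among those called higher in sprouts 2.58% of 659. The match with up to 45 bases on either side is shown for the 6 interferon-stimulated genes with the largest log2 fold change among those with a match, and for B2m, to let the letters be read in their place, with the letters of each match in capitals, 5′ to 3′ along the gene's strand.
Ifit3, chr19:34583362-34583461, plus strand: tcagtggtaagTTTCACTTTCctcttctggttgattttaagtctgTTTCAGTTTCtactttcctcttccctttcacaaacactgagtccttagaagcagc
Gbp7, chr3:142530238-142530335, plus strand: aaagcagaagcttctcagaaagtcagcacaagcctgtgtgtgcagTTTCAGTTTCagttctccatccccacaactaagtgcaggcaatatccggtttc
Rsad2, chr12:26456518-26456617, minus strand: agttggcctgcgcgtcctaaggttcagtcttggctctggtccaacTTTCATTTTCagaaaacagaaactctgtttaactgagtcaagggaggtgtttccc
Cxcl10, chr5:92349048-92349139, minus strand: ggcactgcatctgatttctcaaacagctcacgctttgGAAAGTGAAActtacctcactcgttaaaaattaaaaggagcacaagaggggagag
Ifit1, chr19:34640759-34640858, plus strand: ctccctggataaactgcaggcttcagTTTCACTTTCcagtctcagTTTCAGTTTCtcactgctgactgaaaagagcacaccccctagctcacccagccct
Isg15, chr4:156200830-156200929, minus strand: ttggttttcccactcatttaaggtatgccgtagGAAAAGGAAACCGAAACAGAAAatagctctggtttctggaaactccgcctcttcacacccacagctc
B2m, chr2:122147503-122147602, plus strand: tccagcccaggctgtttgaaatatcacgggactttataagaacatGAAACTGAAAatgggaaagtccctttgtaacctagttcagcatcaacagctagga

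Ifit1 and Ifit3 each hold 2 matches in their 250 bases and Isg15 holds 3 that overlap. The match nearest the start ends 75 bases before it in Ifit1, 112 in Ifit3, 43 in Gbp7, 56 in Isg15 and 203 in Cxcl10. Of the genes shown but not described above, Rsad2, viperin, was 183 to 1041 CPM against 3.14 and 2.42 CPM (7.71 ± 0.92, adjusted p = 7.53e-05). Isg15, a ubiquitin-like protein, was 122 to 865 CPM against 11 and 5.70 CPM (5.71 ± 0.77, adjusted p = 0.000151). Cxcl10 was 47.4 to 953 CPM against 8.61 and 2.21 CPM (6.46 ± 1.78, adjusted p = 0.0334), and its adjusted p was 0.0523 without tumor replicate 5 and 0.192 and 0.287 without sprout replicate 1 or 2. These 3 genes were named after their values were seen, for their promoters. A match is a description of the letters and not a bound site.

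Of 18 tested antigen presentation genes, 14 were called higher in tumor ECs, and 7 were called higher there on the endothelial scale, beside 1.37% of all tested genes. The median was 5.32, and 2.52 on the endothelial scale. B2m, the light chain of MHC class I, was 3191 to 7196 CPM, with a median of 3819, against 112 and 83.3 CPM (5.56 ± 0.51, adjusted p = 6.95e-06). The class I heavy chain genes H2-D1 and H2-K1 were 1786 to 3769 and 3045 to 8998 CPM against 19.8 and 17.2, and 62.7 and 68.8 CPM. Their log2 fold changes were 7.14 ± 0.52 (adjusted p = 1.35e-06) and 6.49 ± 0.62 (adjusted p = 9.39e-06). Nlrc5, the transactivator of class I genes, was 22.6 to 63.0 CPM against 0.299 and 0.335 CPM (7.17 ± 0.80, adjusted p = 2.82e-05), and Psmb8, an immunoproteasome subunit, was 548 to 1462 CPM against 10.4 and 7.51 CPM (6.69 ± 0.61, adjusted p = 6.43e-06). Class II genes were present too: H2-Ab1 was 27.0 to 346 CPM against 0.846 and 0.872 CPM (7.09 ± 1.08, adjusted p = 0.00043). Cd74, the class II invariant chain, was 30.9 to 886 CPM, with a median of 74.2, against 0.597 and 0.403 CPM (8.83 ± 2.24, adjusted p = 0.0251, and 0.223 and 0.248 without sprout replicate 1 or 2). Class II genes are also carried by macrophages and B cells, whose markers summed to 83.3 to 725 and 1.56 to 23.6 CPM in tumor ECs, and their part in these values was not tested. MHC class I genes have near-identical copies, and H2-T23 went from 6.65 with the HTSeq counts to -0.35 with the RSEM counts of the sprouts.

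Leukocyte adhesion and inflammation genes, with 10 of 20 tested members called higher in tumor ECs and 1 in sprouts, had a median of 4.54 (4.42 with the member at 0 in both sprout libraries set to its bound), and of 6.02 without sprout replicate 1. On the endothelial scale the median was 1.76, with 3 genes called higher in tumor ECs and 1 higher in sprouts, beside 1.37% and 43.2% of all tested genes. Icam1 was 375 to 1116 CPM, with a median of 645, against 32.5 and 26.5 CPM (4.47 ± 0.50, adjusted p = 2.53e-05). Sele, E-selectin, was 12.8 to 196 CPM against 0.647 and 0.201 CPM (7.78 ± 1.21, adjusted p = 0.000502). The monocyte chemokine genes Ccl2 (5.28 ± 0.95, adjusted p = 0.00223) and Ccl7 (5.61 ± 1.66, adjusted p = 0.0356) were called, and Ccl7 had an adjusted p of 0.0883 and 0.234 without sprout replicate 1 or 2. The letters GGGANNTTCC, a form of the NF-kB motif, lay in 5 of 15 promoter windows of this list and in 1.36% of all symbols, read on both strands (GGAANNTCCC). They also lay in 3 of 25 windows of interferon-stimulated genes, in 1 of 12 of antigen presentation genes, in 1 of 8 of capillary genes and in 0 of 13 of pan-endothelial genes. Among genes called higher in tumor ECs 3.79% of 528 had them, and among those called higher in sprouts 0.759% of 659.

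**Figure D4:**
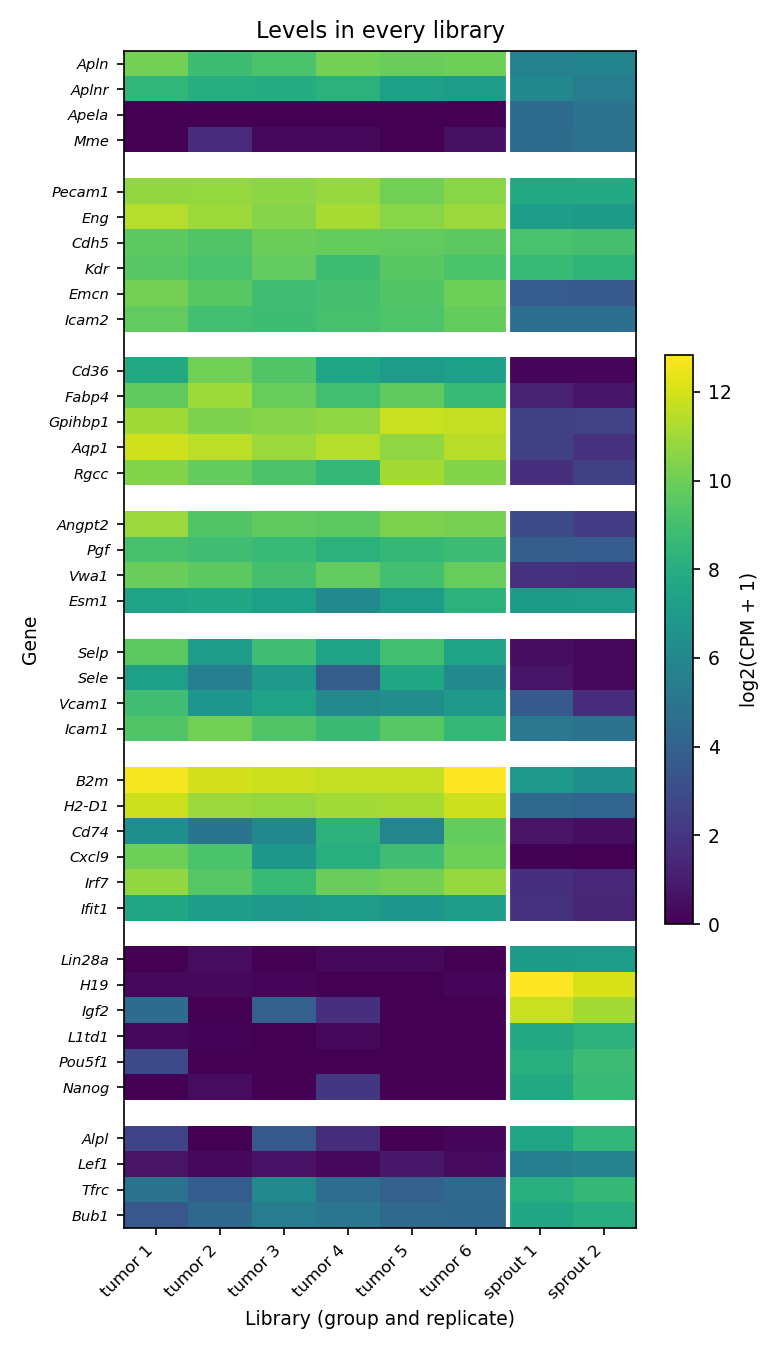
Level of named genes, as log2(CPM + 1), in each of the 6 tumor and 2 sprout libraries, grouped from the top as Apelin axis, pan-endothelial, capillary, tip cell, adhesion, antigen presentation with interferon, embryonic with pluripotent, and other genes higher in sprouts. Cdh5, Kdr and Esm1 keep a like color across the libraries, whereas Gpihbp1 or Irf7 and H19 or Nanog change at the line between the groups. Cdh5, Kdr and Esm1 are higher in sprouts on the endothelial scale, whose sum Cdh5 and Kdr are part of.

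Embryonic stage genes went the other way. Of 20 tested genes, 13 were called, all higher in sprouts, with a median of -5.35 and of -8.07 on the endothelial scale, where 18 of 20 were called, beside 43.2% of all tested genes. The list summed to 18575 and 12927 CPM in sprouts and to 353 to 1301 CPM in tumor ECs. Lin28a and Lin28b, RNA-binding proteins that block let-7 maturation in the embryo, were 126 and 134 CPM and 28.4 and 27.7 CPM in sprouts, and at most 0.327 and 0.434 CPM in tumor ECs. Their log2 fold changes were -9.87 ± 0.73 (adjusted p = 1.35e-06) and -7.90 ± 1.27 (adjusted p = 0.000477). Igf2, a fetal growth factor next to H19 on chromosome 7, was 3452 and 2228 CPM against at most 22.5 CPM (-8.76 ± 1.93, adjusted p = 0.0177, and 0.0924 and 0.0876 without sprout replicate 1 or 2). Igf2bp1, which binds Igf2 mRNA, was 422 and 466 CPM against at most 9.52 CPM (-7.04 ± 1.08, adjusted p = 0.00192). L1td1 had 3 tumor counts (ratio 3408, 1166 to 16530), and Sall4, a factor of early embryonic cells, was 160 and 226 CPM against at most 1.82 CPM (-8.68 ± 0.93, adjusted p = 3.22e-05). L1td1 and Sall4 are known from pluripotent cells, whose markers were high in the same libraries.

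Of 14 tested progenitor and mesoderm genes, 5 were called, all higher in sprouts, with a median of -1.27 and of -3.98 on the endothelial scale, where 7 of 14 were called, beside 43.2% of all tested genes. DESeq2 called 3, with 2 of the 14 left without an adjusted p. Etv2, the transient inducer of the endothelial fate, was 5.52 and 5.84 CPM in sprouts and at most 0.651 CPM in tumor ECs (-4.88 ± 1.62, adjusted p = 0.0378). Leaving out either sprout library gave 0.197 and 0.22, and leaving out tumor replicate 1 or 6 gave 0.0572 and 0.0609. Eomes, a factor of mesoderm and definitive endoderm, was 27.4 and 31.0 CPM against at most 3.87 CPM (-5.32 ± 1.54, adjusted p = 0.0195, and 0.0807 and 0.105 without sprout replicate 1 or 2). Tal1, a factor of blood and endothelial progenitors, was 11 to 34.6 CPM in tumor ECs and 37.8 and 40.6 CPM in sprouts (-0.80 ± 0.54, adjusted p = 0.293).

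At an unadjusted p under 0.05, 18 of 30 tested cell cycle genes were higher in sprouts, beside 2926 of all 14758 tested genes. At this threshold 0 of 30 were higher in tumor ECs, beside 2927 of all tested genes. At an adjusted p under 0.05, 14 were higher in sprouts and 0 in tumor ECs. Bub1, a mitotic checkpoint kinase, was the only one that also passed the size for a call, at 199 and 258 CPM in sprouts and 10.3 to 41.1 CPM in tumor ECs (-3.27 ± 0.42, adjusted p = 7.71e-05). This 1 call is 3.33% of the list, beside 6.04% of all tested genes. The median was -1.35, beside -0.04 over all tested genes, and 25 of the 30 values were negative. On the endothelial scale the median was -4.12 and 24 of 30 were called higher in sprouts, beside 43.2% of all tested genes. Mki67, the proliferation antigen, was 276 and 270 CPM against 23 to 128 CPM (-2.07 ± 0.45, adjusted p = 0.00399), and Top2a was 521 and 552 CPM against 131 to 477 CPM (-1.31 ± 0.42, adjusted p = 0.0309).

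Hox genes give cells their position along the body axis, and higher paralog numbers stand for more posterior positions. Of 33 tested Hox genes, 6 were called higher in tumor ECs and 2 higher in sprouts. These shares of 18.2% and 6.06% stand beside 5.03% and 6.04% of all tested genes. The median was 0.53, was 0.0015 without tumor replicate 5, and turned to -2.19 on the endothelial scale. There 0 of 33 were called higher in tumor ECs and 11 higher in sprouts, beside 1.37% and 43.2% of all tested genes. The Hoxd cluster on chromosome 2 gave 4 of the 6. Hoxd9 (chr2:74697763-74700208) was 65.7 to 124 CPM, with a median of 97.3, against 4.83 and 5.30 CPM (4.26 ± 0.47, adjusted p = 2.53e-05). Hoxd10 (chr2:74684273-74695106) was 29.0 to 55.8 CPM against 3.63 and 1.34 CPM (4.19 ± 0.65, adjusted p = 0.000379). Hoxd3 (chr2:74711993-74748271) was 16.1 to 61.7 CPM against 1.64 and 0.201 CPM (5.01 ± 1.02, adjusted p = 0.0026). Hoxd8 (chr2:74704615-74707933) was 70.4 to 152 CPM against 9.75 and 7.31 CPM (3.43 ± 0.49, adjusted p = 0.000181). These neighbors did not overlap between the groups. Hoxd13, at the posterior end of the same cluster, went the other way, with 18.6 and 5.64 CPM in sprouts and at most 1.62 CPM in tumor ECs (-4.78 ± 1.49, adjusted p = 0.0283). It lost its call without sprout replicate 1 or 2 (0.359 and 0.0869), as without tumor replicate 4 (0.0512).

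In the Hoxb cluster, Hoxb7 was 25.2 to 167 CPM against 4.68 and 5.23 CPM (3.89 ± 0.78, adjusted p = 0.00235). Hoxb1, which acts in the hindbrain and early mesoderm, was 19.3 and 17.7 CPM in sprouts and at most 3.04 CPM in tumor ECs (-4.39 ± 1.50, adjusted p = 0.043). Leaving out either sprout library gave 0.195 and 0.183, and leaving out tumor replicate 1, 3 or 6 gave 0.0739, 0.0513 and 0.0569. In the Hoxa cluster, Hoxa7 was at the threshold (3.01 ± 1.06, adjusted p = 0.0481), and it was not called without sprout replicate 1 or 2 or tumor replicate 1, 2, 4 or 6, with adjusted p of 0.0578 to 0.273. Hoxa2 was under 4 CPM in all 8 libraries (-0.15 ± 1.62, adjusted p = 0.952). Hoxb7, Hoxd8, Hoxa7 and Hoxd13 were named after their values were seen.

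**Figure D5:**
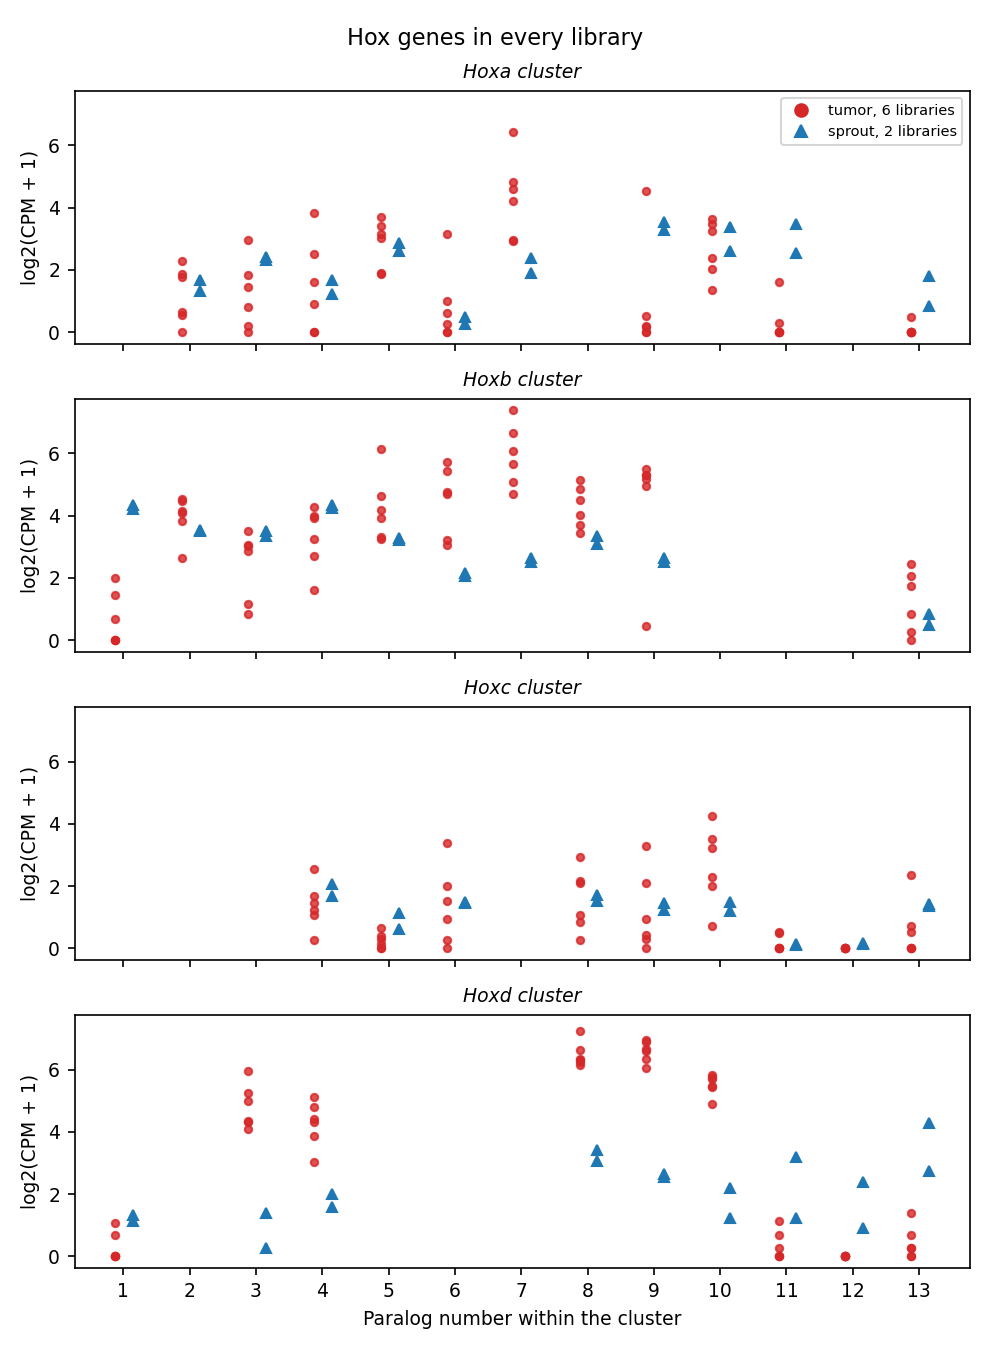
Level of Hox genes, as log2(CPM + 1), by paralog number in the 4 clusters, for the 6 tumor libraries (red) and 2 sprout libraries (blue). Hoxd3, Hoxd8, Hoxd9 and Hoxd10 lie higher in all tumor libraries and Hoxd13 in both sprout libraries. On the endothelial scale the median of the list is -2.19. There 0 of 33 members were called higher in tumor ECs and 11 higher in sprouts, beside 1.37% and 43.2% of all tested genes.

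Of 20 tested hypoxia and glycolysis genes, 2 were called higher in tumor ECs and 1 higher in sprouts, with a median of -0.52. These shares of 10% and 5% stand beside 5.03% and 6.04% of all tested genes. On the endothelial scale the median was -3.28, with 1 called higher in tumor ECs and 11 of 20 higher in sprouts, beside 43.2% of all tested genes. Vegfa, the ligand that was also added to the sprouts as protein, was 327 and 234 CPM in sprouts and 3.16 to 40.9 CPM in tumor ECs (-3.96 ± 0.71, adjusted p = 0.00176). Adm, adrenomedullin, was 234 to 657 CPM in tumor ECs and 35.3 and 34.5 CPM in sprouts (3.68 ± 0.43, adjusted p = 4.09e-05). Eno1 was called at 10.02 ± 0.57 with the HTSeq counts of the sprouts and was at -0.98 with their RSEM counts. The tumor counts were the same in both fits, so RSEM changed only the sprout side. Like Eno1, Gapdh on the housekeeping list went from 3.33 ± 0.65 to -4.84 with RSEM. Both genes have processed copies elsewhere in the genome, HTSeq set aside 42.6 and 46.9% of its tally (assigned, without a gene or not unique) in the sprout libraries as not uniquely placed, and the cause was not tested. Of 24 housekeeping genes, Gapdh and Tfrc were called, 1 in each direction, and the median was 0.53, -2.22 on the endothelial scale and -0.45 with RSEM. Actb was 5477 to 15348 CPM against 2528 and 2495 CPM (2.00 ± 0.38, adjusted p = 0.00156).

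Matrix genes depended on the libraries with fibroblast markers. Of 22 tested genes, 2 were called higher in tumor ECs, or 9.09%, beside 5.03% of all tested genes. The median was 1.00, and it was -0.22 without tumor replicate 2 and 2.42 and 0.37 without sprout replicate 1 or 2. On the endothelial scale it was -1.71. Sparcl1, a secreted matricellular protein, was 981 to 1901 CPM against 23.8 and 17.6 CPM (6.00 ± 0.45, adjusted p = 1.5e-06) and Col15a1, a basement membrane collagen, was 142 to 305 CPM against 21.1 and 17.3 CPM (3.47 ± 0.41, adjusted p = 4.72e-05), each highest in tumor replicate 2, the library with the most fibroblast marker reads. The part of such cells in these values was not tested. Col1a1 was 983 CPM in tumor replicate 2, 5.64 to 44.7 CPM in the other tumor libraries, and 1340 and 254 CPM in sprouts (-2.17 ± 2.13, adjusted p = 0.503). Without that library it was called higher in sprouts, at -5.65 with an adjusted p of 0.000639, and Col1a2 went from -0.48 (adjusted p = 0.889) to -3.33 (adjusted p = 0.0123). The sprouts grew inside a collagen gel, which adds protein and not RNA.

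Immediate-early genes, which cell dissociation is known to induce within minutes, had 4 of 19 tested members called, all higher in tumor ECs. This is 21.1% of them, beside 5.03% of all tested genes. The median was 1.15, and it was 1.92 without sprout replicate 1 and 0.65 without sprout replicate 2. On the endothelial scale it was -1.61, with 0 called higher in tumor ECs and 3 higher in sprouts, beside 1.37% and 43.2% of all tested genes. Both sorts used enzyme-dissociated tissue. Fos was 663 to 2145 CPM against 873 and 218 CPM (1.37 ± 0.54, adjusted p = 0.0757) and Fosb 114 to 183 CPM against 447 and 133 CPM (-1.02 ± 0.37, adjusted p = 0.0537), and the libraries overlapped in both. Fosl1 (5.33 ± 0.95, adjusted p = 0.001), Myc (3.73 ± 0.57, adjusted p = 0.000321), Ier3 (3.53 ± 0.60, adjusted p = 0.000689) and Atf3 (3.30 ± 0.46, adjusted p = 0.000161) were called, and Atf3 was at 2.79 without sprout replicate 2.

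Of the sex-linked genes, the 4 Y-linked ones had no count in any of the 8 libraries. Xist, which coats the inactive X chromosome, was 229 to 698 CPM in tumor ECs and 163 and 80.2 CPM in sprouts (1.63 ± 0.45, adjusted p = 0.0154). Tsix, its antisense partner, was 13.9 and 35.8 CPM in sprouts and at most 1.16 CPM in tumor ECs (-6.32 ± 1.37, adjusted p = 0.00388, and 0.106 without sprout replicate 2). The sources used here do not say that reads were counted by strand, so reads of the overlapping genes Xist and Tsix cannot be told apart with certainty.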

How the data were processed

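The deposited tumor files held whole-number counts per gene symbol. The paper's methods name STAR and featureCounts for them, and the submitters' processing notes name Trim Galore 0.5.0, Bowtie2 2.3.4.1, SAMtools 1.9 and Subread 1.6.2. For the sprouts the authors deposited HTSeq 0.6.1p1 counts and RSEM 1.2.25 expected counts after alignment with STAR 2.5.0a, and the expected counts were rounded and used only as an alternative. HTSeq leaves out reads that fit several places, whereas RSEM shares them out, so genes with near-identical copies can differ between them. Counting by strand is not given in the sources used here.

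The 23690 shared symbols were tested with edgeR 4.0.16 in R 4.3.3 (TMM normalization, filterByExpr with a minimum of 10 counts, robust quasi-likelihood test, Benjamini-Hochberg adjustment) on 6 tumor and 2 sprout libraries without covariates, and the fit was tested on simulated data. Log2 fold changes are tumor over sprout, and CPM are counts per 1e6 counts of the shared symbols after TMM except in the comparison of Apln across 13 libraries, which used shared-symbol totals. A group at 0 counts was set to a floor of 3 counts per library. With 1 to 3 counts a ratio with a 95% exact Poisson interval is given, which, like the floor, covers counting error only. An exact permutation test of 6 against 2 libraries cannot reach an adjusted p under 0.05 over these genes and was not used.

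Named genes were Apln, Aplnr and 4 sort or endothelial genes, the 10 called genes per direction with the largest log2 fold change and at least 50 CPM in every library of the higher group, and, in each list, the first 2 members and up to 4 further called members with at least 10 CPM. Others are marked in the text or are marker genes, and a few genes the rule named are not reported here. Members, lists and markers were chosen with earlier results of these data known. Alternatives were DESeq2 1.42.0, other scalings, filters and thresholds, RSEM, ranks, a replicate block, the other 5 libraries and leaving out each library. Leaving out tumor replicates 2, 3 and 4 together was chosen after seeing the data. Promoter windows and coordinates came from RefSeq (GRCm38.p6).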

Additional observations from a re-analysis of the deposited data

Results flagged for a closer look

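Each of these tumor libraries lay further from the other 5 than Dixon's 95% limit allows, on log2(CPM + 1). Chance flags about 1 in 20 groups, and 23 were flagged of 142 genes and 5 marker sums looked at. In 7 of them (Tdgf1, Hbb-bh1, Trap1a, Utf1, Pou5f1, Hbb-y and Hba-x) the other 5 libraries were all at 0, so any count gives the largest gap and the chance rate does not apply. No explanation was tested.

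Several genes stood out in tumor replicate 2. Dcn was 2336 CPM there and 0.156 to 9.33 CPM in the others, the summed fibroblast markers were 6941 CPM against 77.2 to 321 CPM, and the immediate-early gene Ier3 was 2457 CPM against 639 to 1007 CPM. The same library was the highest of the 6, at low levels, for Spock2 (1.85 CPM), Mme (1.96 CPM), Sox2 (2.94 CPM) and Cdh1 (2.83 CPM).

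In tumor replicate 3, the summed lymphatic list was 3294 CPM against 174 to 362 CPM, Stab2 was 241 CPM against at most 3.90 CPM, and Eomes was 3.87 CPM. In tumor replicate 4, Lyz2 was 497 CPM against 9.21 to 25.7 CPM and Mfsd2a was 11.1 CPM against 0.578 to 1.99 CPM. That library also held 3.25 CPM of Nanog, 1.95 CPM of Hba-x, 0.651 CPM of Utf1, 0.434 CPM of Hbb-y and 0.217 CPM of Tdgf1, the last a single count.

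Tumor replicate 5 had the lowest Slc2a1, 102 CPM against 256 to 340 CPM, the lowest Gapdh, 29.1 CPM against 120 to 245 CPM, and the highest Top2a, 477 CPM against 131 to 210 CPM. Pou5f1 (6.08 CPM) and Trap1a (0.405 CPM) were highest in tumor replicate 1, and Hbb-bh1 (0.156 CPM, 1 count) in tumor replicate 6.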

How the results depend on the processing

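The 743 genes called higher in tumor ECs and 892 called higher in sprouts were within 1.5 times under other scalings by size factors or upper quartiles, other filters, RSEM counts and the other 5 libraries, except as follows. The calls higher in tumor ECs were 1116 with DESeq2, 202 on the endothelial scale, 2012 at a log2 fold change over 1 and 278 when edgeR tested against a log2 fold change of 3 itself. The calls higher in sprouts were 6382, 1951 and 167 under the last 3 of these. Leaving out 1 library gave 456 to 786 and 329 to 929 calls, the lowest without sprout replicate 2. With the replicate number as a block, 814 and 932 genes were called. The numbers come from separate experiments. Same-numbered libraries had correlations of 0.0321 and -0.139 in their deviations from the group mean. With 2 sprout libraries these deviations are mirror images, so the check cannot show whether libraries were paired.

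On the endothelial scale the log2 medians of these lists turned negative: arterial -2.05, venous -0.25, lymphatic -2.25, liver -0.65, lung -1.40, tip cell -1.40, maturity -0.016, Hox -2.19, matrix -1.71, immediate-early -1.61 and housekeeping -2.22. So did Aplnr -0.56, Cdh5 -2.16, Kdr -1.95, Gja4 -2.70, Nr2f2 -1.87, Nrp2 -1.64, Prox1 -0.49, Mfsd2a -2.07, Stab1 -0.90, Nfatc1 -1.54, Foxf1 -1.11, Esm1 -2.40, Klf2 -1.82, Klf4 -2.01, Fos -1.37, Actb -0.77 and Xist -1.11.

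With RSEM counts for the sprouts and unchanged tumor counts, the housekeeping median was -0.45, Eno1 -0.98, Gapdh -4.84 and H2-T23 -0.35. As a difference of percentile ranks, Cdh5 was -0.15, Gja4 -16.5, Prox1 -0.50, Hoxa2 3.46 and Dcn -13.5 points. With the replicate block the lymphatic median was -0.32, the Hox median -0.27, Gja5 0.58, Prox1 -0.77, Mfsd2a -1.18 and Hoxa2 0.82. Without tumor replicates 2, 3 and 4 the lung and matrix medians were -0.39 and -0.39, Gja4 -0.81, Mfsd2a -1.33 and Dcn -2.72. In the other 5 libraries 15 of 22 list medians moved by more than the SD of the list between tumor libraries without turning, among them pan-endothelial to 4.90, venous to 4.72, maturity to 4.42 and immediate-early to 3.54. There the matrix median was -0.79, Apln -2.87 (its depleted tumors are compared there), Gja5 0.25, Npr3 0.49, Tal1 2.67, Hoxa2 1.50 and Fosb 2.48. Leaving out 1 library moved the lung median between -0.31 and 1.93, the matrix median between -0.22 and 2.42, Gja4 between -1.15 and 0.38, Mfsd2a between -0.80 and 0.92, Hoxa2 between -0.61 and 0.12, Col1a2 between -3.33 and 0.97, Fosb between -1.68 and 0.069, Dcn between -2.99 and 5.58 and Col3a1 between -2.05 and 1.03. The causes were not tested. Tissue, protocol and what else differed between the groups cannot be told apart in any of these fits, and 2 sprout libraries limit the estimate of the spread.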
